A study of Mus musculus with 12 samples.

Results

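The genes followed here are 10 immediate early genes, Fos, Fosb, Jun, Junb, Jund, Egr1, Ier2, Ier3, Zfp36, and Myc, found in the data by their gene symbols. They fill 11 of the 34245 rows of the expression data, because Junb has 2 rows. Each of the 12 mRNA-Seq libraries was made from a pool of 30 mouse blastocysts, from F1 hybrid (C57Bl6 x CBA/W) females mated with F1 males, that had been recovered at E1.5 and cultured to E3.5. The pools then spent 4, 7, or 10 h in DMSO (control) or in 20 µM SB220025, an inhibitor of p38 mitogen-activated protein kinase (p38i), with 2 replicate pools in each of the 6 groups. The comparisons ask how the 10 genes change as control blastocysts mature, and how they respond when p38-MAPK is inhibited. The labels number the replicates without saying whether the pools came from separate collections, so p-values measure the spread between these pools, which may be partly technical.

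Immediate early genes are transcribed within minutes of a signal, without new protein synthesis, when kinases of the ERK and p38 pathways phosphorylate transcription factors already bound at their promoters. Most encode transcription factors that pass the signal to later genes, and their mRNAs are usually short-lived. The p38 pathway acts on both ends of this cycle, since its downstream kinases act on promoter-bound factors and on proteins that control the decay of AU-rich mRNAs. The earliest libraries were taken hours after the change of medium, so any first, brief peak lies outside the data.

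A level is given in RPKM (reads scaled to the length of the gene's exons and to the size of the library), which allows genes of different length to be compared. The libraries held 11242313 to 24457312 reads, with the lowest total in replicate 1 of p38i at E3.5 + 7 h. Markers of the trophectoderm (Cdx2, 144 to 237 RPKM) and of the inner cell mass (Nanog, 96.8 to 141 RPKM) were present in every library, while Elf5, Sox7, and Foxa2 stayed under 1 RPKM. The 7 markers of maternal somatic cells had at most 34 reads in any library, and Ptprc and Hbb-bs had 0. In whole blastocysts, fewer cells of a type and less RNA per cell cannot be told apart.

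Of the 10 genes, 7 reached at least 1 RPKM in at least 2 libraries, as did 11590 rows of the whole table, and Fos, Fosb, and Egr1 did not. Jund, an AP-1 subunit that many cells express without stimulation, had the highest level of the members in control blastocysts (lowest 143, median 226, highest 241 RPKM over 6 libraries). Ier2, which encodes a small nuclear protein, came next (28.2, 36.9, and 38.5 RPKM). The ranges of neither gene overlapped with that of the next gene down.

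Jun, the founding AP-1 subunit (7.34, 9.45, and 11.3 RPKM), overlapped with Myc (5.16, 6.01, and 7.72 RPKM), the transcription factor of growth and ribosome production. Myc in turn overlapped with Zfp36 (4.2, 4.73, and 5.49 RPKM), which encodes tristetraprolin, an RNA-binding protein that promotes the decay of mRNAs with AU-rich elements. Below them lay Ier3, a regulator of stress survival and not a transcription factor (2.39, 3.42, and 3.99 RPKM), and the AP-1 subunit Junb (1.71, 2.26, and 3.19 RPKM), which overlapped with each other. The members thus ran from a gene at the 99.4 percentile of rows with a read (Jund) to genes that were hardly detected.

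**Figure D1:**
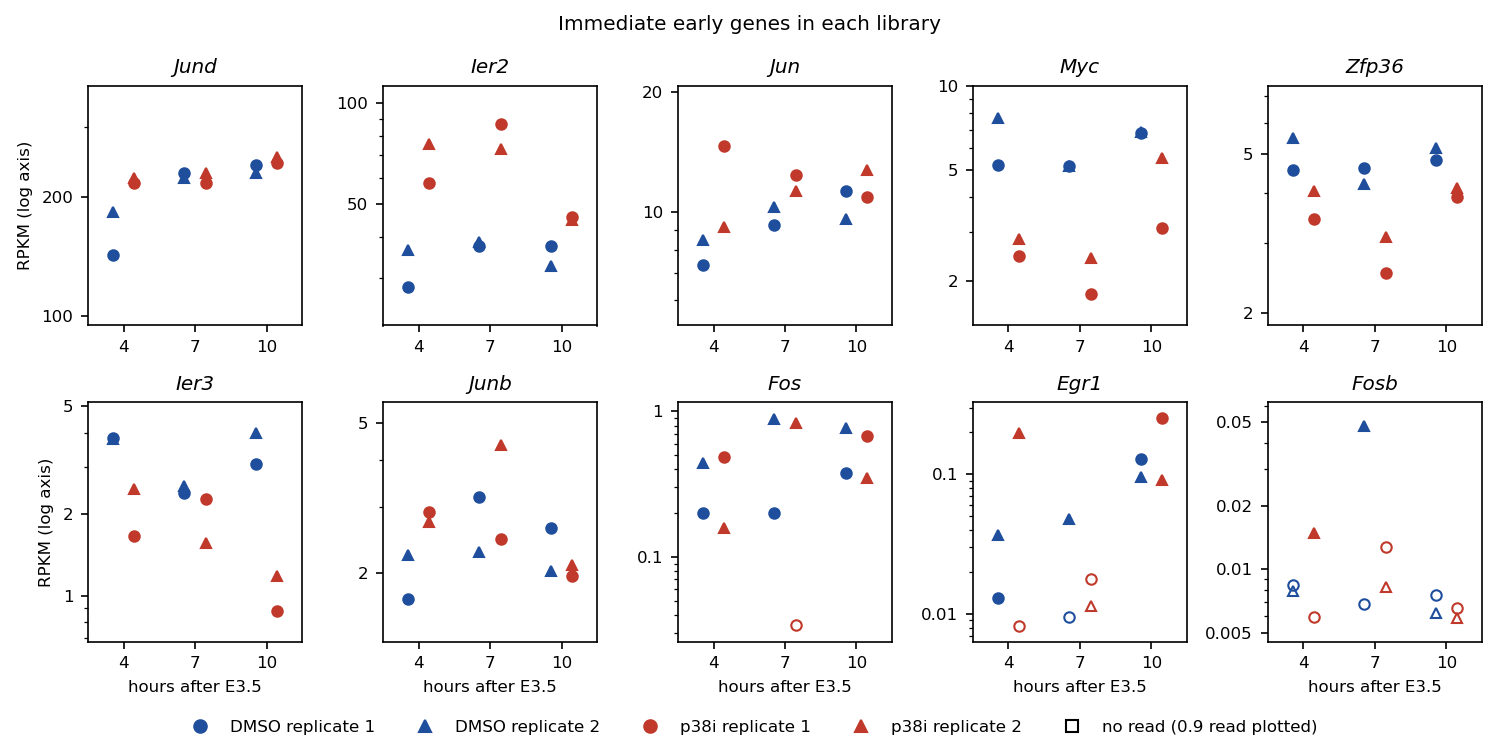
RPKM of the 10 genes on log axes, in order of their control level, with 1 point per library against hours after E3.5. Blue is DMSO, red is p38i, circles are replicate 1, triangles are replicate 2, and open symbols mark libraries with no read. Ier2 lies higher in both p38i libraries at each time, Myc, Zfp36, and Ier3 lie lower, and Fos, Egr1, and Fosb scatter between replicates.

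The second row of Junb (chr8:84974484-84976542, 492 bases) had 0 reads in all libraries, and all Junb values come from its coding row (chr8:84976910-84978718 in GRCm38). The overlapping Gm11175, which lies inside Jund (chr8:70698949-70700616), had 0 to 22 reads in the libraries in which Jund had 4044 to 10293, so the 2 genes' counts were kept apart. Junos, beside Jun, had at most 37 reads and Gm44710, beside Zfp36, at most 14. Prdx2, which is well expressed (1422 to 2904 reads), ends at base 84974834 of chromosome 8 and so overlaps with the silent Junb row and not with the coding one.

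Fos, Fosb, and Egr1, the members that are best known for a brief response to stimulation, stayed under 1 RPKM. Fosb and Egr1 were at or near the limit of detection, while Fos was low but had reads in every DMSO library (0.199 to 0.892 RPKM). Fos, which pairs with Jun proteins in AP-1, had 8 and 19 reads in DMSO at E3.5 + 4 h, 10 and 49 at + 7 h, and 17 and 42 at + 10 h. With p38i it had 28 and 8, 0 and 34, and 35 and 20 reads at the same times. The groups overlapped at all 3 time points, and the replicates of a group differed more than the groups did. In DMSO at E3.5 + 7 h the exact Poisson intervals of the replicates' reads (95%, counting error only), 4.8 to 18.4 and 36.3 to 64.8, did not overlap, and the replicates differed by 2.15 on the log2 scale, against a median of 0.23 over all rows with at least 1 RPKM. The p38i library without a Fos read was the shallowest, where 3 reads, the limit that a count of 0 allows, would be 0.113 RPKM.

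Egr1, a zinc-finger factor induced by serum and growth factors, had 0 to 25 reads per library. It had 1, 3, 0, and 5 reads in the DMSO libraries of the first 2 time points and 11 and 10 in those of E3.5 + 10 h. With p38i it had 0 and 19, 0 and 0, and 25 and 10 reads. Fosb, a Fos relative, had 2 reads in p38i replicate 2 at + 4 h, 7 in DMSO replicate 2 at + 7 h, and 0 in the other 10 libraries. These 3 genes were below the filter. Without it limma called none of them in the p38i comparisons (11 tests, adjusted p from 0.682 to 0.97). At each single time point limma then called 0 genes in the whole table, so those adjusted values say nothing particular to these 3. In the common effect it called 98 genes, and none of the 3. At an unadjusted p under 0.05 there were 0 of the 11 tests, so no p38i effect on these genes was detected at this depth.

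The 250 bases before the start site are shown for 4 members, to set the promoters of genes that differed in level and in response beside each other. RefSeq (GRCm38.p6) gave promoters for 7 of the 10 members. Capitals mark matches, on either strand, to the CArG box bound by serum response factor, the CRE TGACGTCA and its partial form TGACGT, which the full CRE contains, the AP-1 sites TGACTCA and TGACATCA, the EGR site GCGNGGGCG, the E-box CACGTG, or TATAAA.
Fos, chr12:85473640-85473889, plus strand: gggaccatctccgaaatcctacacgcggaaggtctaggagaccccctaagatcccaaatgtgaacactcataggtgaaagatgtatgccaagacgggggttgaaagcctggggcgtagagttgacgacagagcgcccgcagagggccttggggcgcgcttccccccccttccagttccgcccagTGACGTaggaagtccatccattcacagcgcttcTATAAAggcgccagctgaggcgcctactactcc
Jun, chr4:95052223-95052472, minus strand: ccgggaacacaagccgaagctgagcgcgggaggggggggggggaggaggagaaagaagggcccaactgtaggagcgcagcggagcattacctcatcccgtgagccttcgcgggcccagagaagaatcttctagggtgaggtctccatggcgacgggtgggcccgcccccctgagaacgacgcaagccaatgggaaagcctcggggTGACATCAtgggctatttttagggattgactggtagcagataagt
Zfp36, chr7:28379229-28379478, minus strand: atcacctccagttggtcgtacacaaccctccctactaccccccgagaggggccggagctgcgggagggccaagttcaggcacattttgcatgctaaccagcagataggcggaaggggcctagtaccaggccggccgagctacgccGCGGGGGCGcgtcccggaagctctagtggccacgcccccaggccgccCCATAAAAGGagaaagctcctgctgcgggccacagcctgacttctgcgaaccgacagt
Ier3, chr17:35821463-35821712, plus strand: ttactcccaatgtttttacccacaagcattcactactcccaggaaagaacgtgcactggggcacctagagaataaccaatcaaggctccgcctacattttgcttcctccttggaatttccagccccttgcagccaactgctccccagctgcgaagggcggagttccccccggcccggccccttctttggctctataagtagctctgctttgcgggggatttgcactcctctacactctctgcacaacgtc

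The Fos window held TGACGT, 66 to 61 bases before the start, and TATAAA at 33 to 28. The Jun window held TGACATCA at 45 to 38, and the Zfp36 window held a CArG box, CCATAAAAGG, at 58 to 49 and GCGGGGGCG at 105 to 97. Ier3, Junb, and Jund had no match in these windows, and Fosb had 1 EGR match. Among 27025 promoters, a CArG box was in 1.4%, TGACATCA in 3.02%, the EGR site in 4.65%, TGACGT in 6.56%, TATAAA in 13%, the full CRE in 1.62%, TGACTCA in 4.43%, and the E-box in 6.05%. A match describes the letters and not a bound site. The Zfp36 window lies inside the longer gene span of the GENCODE annotation used for the counts (chr7:28376784-28380253), whose start differs from that of RefSeq, and the end of the Ier3 window reaches into its GENCODE span. The Jund window (chr8:70697489-70697738) ends well before the counted gene starts, at base 70698949, so it does not show the bases next to that start.

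The AU-rich nonamer TTATTTATT, the kind of sequence that tristetraprolin binds, was looked for after the stop codon of each member. It occurred in Fos and in Zfp36 itself, 2 of 10 members (20%), against 7.66% of 10579 genes with at least 1 RPKM.
Fos, chr12:85477103-85477131, plus strand: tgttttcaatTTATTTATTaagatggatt
Zfp36, chr7:28376951-28376979, minus strand: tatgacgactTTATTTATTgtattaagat
The shorter ATTTA occurred 5 times in Ier3, 4 times in Fos and in Jun, 3 times in Zfp36, and 0 times in Ier2, and 9 of 10 members held at least 1, against 67.6% of all genes.

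In control blastocysts no member passed the test between any 2 time points (limma, threshold 0.05), and Jund came nearest. Its levels were 143 and 183 RPKM at E3.5 + 4 h, 230 and 223 at + 7 h, and 241 and 229 at + 10 h. The 2 libraries of + 4 h were below all later ones. From + 4 h to + 10 h the log2 change was 0.54 ± 0.12 (SE, n = 2 against 2, limma adjusted p = 0.0916), on a background where the median of all genes was 0.14.

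Of all genes tested, 0.492% passed between + 4 h and + 7 h, 0.0552% between + 7 h and + 10 h, and 0.471% between + 4 h and + 10 h. At an unadjusted p under 0.05 there were 2 members in each comparison, Jund and Ier3, then Ier3 and Myc, then Jun and Jund, beside 4.79%, 3.79%, and 15.2% of all genes. A count model on the recovered reads (voom) called 0, 0, and 1 members, the last being Jund, beside 0.0835%, 0.0828%, and 4.42% of all genes. In DMSO from + 4 h to + 7 h limma gave every gene the variance of the trend. Ier3 differed by -0.63 on the log2 scale from + 4 h to + 7 h (adjusted p = 0.722) and by 0.51 from + 7 h to + 10 h (adjusted p = 1, limma). Apart from these and from Jund between + 4 h and + 10 h, the log2 differences lay between -0.29 and 0.48 in the 3 comparisons.

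With p38i, Ier2 was higher and Myc, Ier3, and Zfp36 were lower in both libraries than in both DMSO libraries at each of the 3 time points. Over the whole table, 3.55% of rows were higher and 3.99% lower in this way. The effect common to the time points, from all 12 libraries, passed for these 4 of the 7 tested members, 1 higher and 3 lower. Of all genes 2.67% passed, 1.43% higher and 1.24% lower. Jun, Junb, and Jund, the AP-1 subunits that could be tested, did not pass. The median change of the 7 members was 0.16, against -0.03 over all genes, with members on both sides. These 7 genes are short (median 1809 bases, against 3812.5 for all genes). With the trend with length removed their median was 0.06, against 0.01 over all genes.

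**Figure D2:**
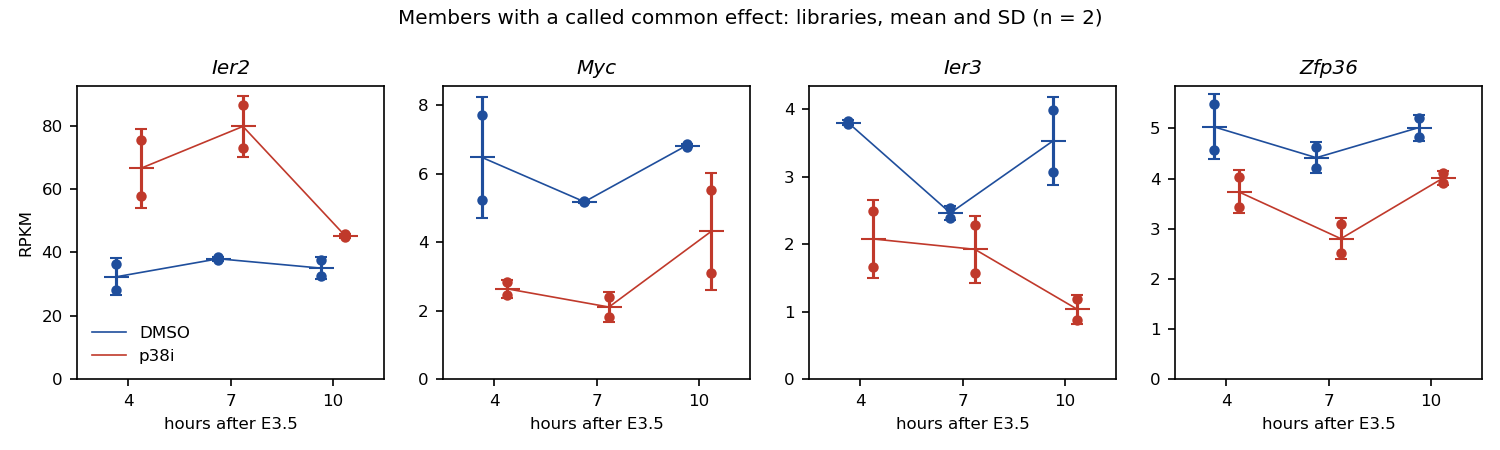
RPKM of Ier2, Myc, Ier3, and Zfp36 on linear axes from 0, against hours after E3.5. Points are libraries, and horizontal marks with error bars are the mean ± SD of 2 libraries, joined by lines (blue, DMSO; red, p38i). Ier2 with p38i has a mean of 79.8 RPKM at + 7 h and 45.2 at + 10 h, and the p38i points of the other genes lie below those of DMSO at each time.

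Ier2 (chr8:84661331-84662852 in GRCm38) had 28.2 and 36.4 RPKM in DMSO and 57.7 and 75.4 with p38i at E3.5 + 4 h. At + 7 h it had 37.5 and 38.5 against 86.6 and 73 RPKM, and at + 10 h 37.5 and 32.6 against 45.7 and 44.8. The groups did not overlap at any time, and the distance between them was smallest at + 10 h. The log2 change was 1.04 ± 0.20 at + 4 h (SE, limma adjusted p = 0.000131) and 1.06 ± 0.17 at + 7 h (adjusted p = 0.0456), about 2.06-fold and 2.09-fold. At + 10 h it was 0.37 ± 0.08 (adjusted p = 0.0919), and the common change was 0.83 ± 0.13 (adjusted p = 0.0093).

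Myc (chr15:61985391-61990374) had 5.23 and 7.72 RPKM in DMSO and 2.45 and 2.83 with p38i at E3.5 + 4 h. It had 5.16 and 5.2 against 1.8 and 2.41 RPKM at + 7 h, and 6.79 and 6.86 against 3.11 and 5.52 at + 10 h. All p38i libraries lay below the DMSO libraries of their time, with the widest spread between p38i replicates at + 10 h. The log2 change was -1.27 ± 0.27 at + 4 h (SE, limma adjusted p = 0.0011), -1.32 ± 0.28 at + 7 h (adjusted p = 0.0503), and -0.72 ± 0.25 at + 10 h (adjusted p = 0.186). The change at + 7 h missed the threshold here and passed it with a pseudocount of 1 (adjusted p = 0.0423), with all 12 libraries in one fit (0.0113), with the replicate block (0.0117), with voom (0.0304), and without replicate 1 or 2 of p38i (0.0255 and 0.00151, limma otherwise). Leaving out a DMSO replicate did not bring it past, and the common change of -1.10 ± 0.17 passed it (adjusted p = 0.0091).

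Ier3 (chr17:35821684-35822923) had 3.83 and 3.78 RPKM in DMSO and 1.67 and 2.49 with p38i at E3.5 + 4 h. It had 2.39 and 2.54 against 2.28 and 1.57 RPKM at + 7 h, and 3.07 and 3.99 against 0.883 and 1.19 at + 10 h. The gap was narrow at + 7 h, where the DMSO level was itself lowest, and wide at + 10 h. The values at + 10 h rest on 66 and 105 reads in DMSO and 22 and 33 with p38i. The log2 change was -1.77 ± 0.24 at + 10 h (SE, limma adjusted p = 0.0403), the largest of any tested member at any time, and the common change was -1.01 ± 0.22 (adjusted p = 0.0336). At + 4 h and + 7 h the differences, -0.90 and -0.38, did not pass (adjusted p = 0.165 and 0.503, limma).

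Zfp36 differed less and more evenly. It had 4.57 and 5.49 RPKM in DMSO against 3.43 and 4.04 with p38i at E3.5 + 4 h, 4.63 and 4.2 against 2.51 and 3.09 at + 7 h, and 4.83 and 5.2 against 3.91 and 4.11 at + 10 h. No single time point passed, with log2 differences of -0.43, -0.66, and -0.32 (limma adjusted p = 0.651, 0.152, and 0.202). The common change of -0.47 ± 0.11 passed narrowly (SE, limma adjusted p = 0.0436).

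At the single time points 2 members passed at E3.5 + 4 h (Ier2 and Myc), 1 at + 7 h (Ier2), and 1 at + 10 h (Ier3), while 0.909%, 2.13%, and 0.803% of all genes passed. Non-overlapping libraries were common, at 40.4%, 61.7%, and 52.2% of all genes, and were seen for 7, 5, and 5 of the 7 members. At + 7 h the median of all genes was -0.14, and centring the libraries on their medians moved it to 0.05, with Ier2 then at 1.26 and Myc at -1.12.

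These calls are not firm. At + 4 h limma gave every gene the variance of the trend, so a gene's own spread did not enter its test, and without replicate 1 of DMSO the adjusted p was 0.467 for Ier2 and 0.0613 for Myc, while without replicate 2 of DMSO it was 0.0071 for Ier2 and 0.546 for Myc. Ier2 at + 7 h was lost without replicate 2 of DMSO (adjusted p = 0.237, limma), and Ier3 at + 10 h without replicate 2 of DMSO (0.0854) or replicate 1 of p38i (0.0582). With the 7 h time point, which holds the shallowest library, left out after the data were seen, the common changes were 0.71 for Ier2, -1.33 for Ier3, and -0.37 for Zfp36 (limma adjusted p = 0.0976, 0.0495, and 0.248), Myc stayed lower (adjusted p = 0.0871), and of the 4 Ier3 alone passed. No filter, no trend, median centring, and removal of the length trend each ended the calls of Ier2 and Myc at + 4 h and of Ier2 at + 7 h, and no filter and no trend that of Ier3 at + 10 h. This loss was not particular to the members. Over all genes these settings left 0 calls at + 4 h (11 without the trend) and 0 at + 7 h. At + 10 h no filter left 0 and no trend left 9. In the common effect the calls of Ier2 and Myc were lost only without the 7 h time point, whereas that of Ier3 was kept under 9 of 20 alternatives and that of Zfp36 under 3 of 20. Directions of the called changes were kept under every alternative run.

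**Figure D3:**
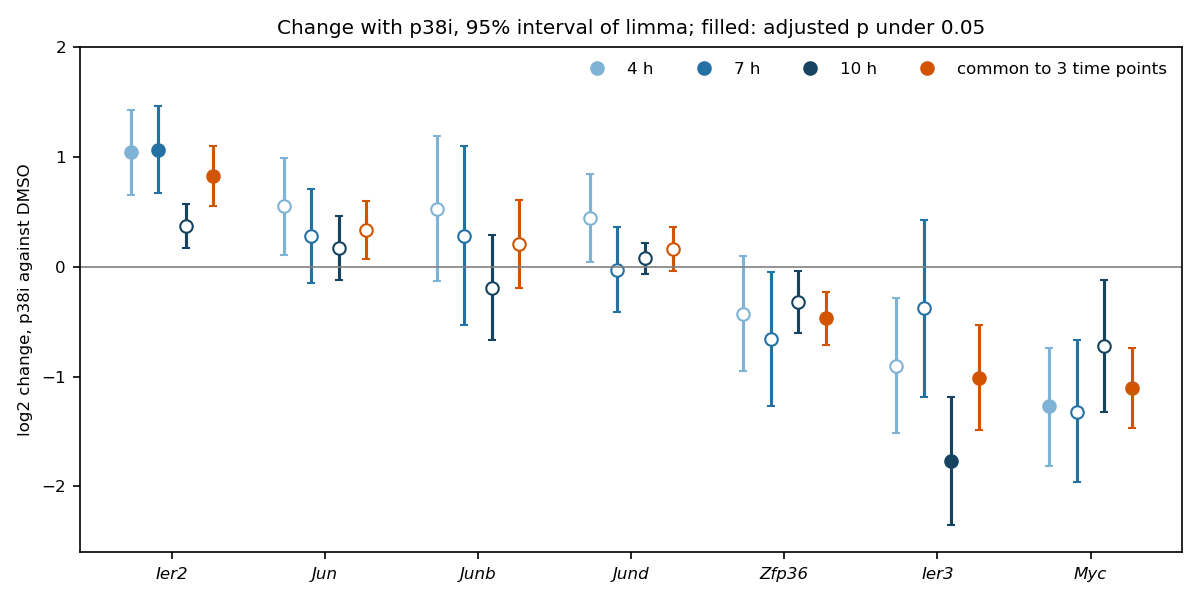
Log2 change of p38i against DMSO for the 7 tested genes, at 3 time points and common to them, with the 95% interval of limma. Filled points passed the threshold (adjusted p under 0.05) and open points did not. The points of Ier2 lie above 0 throughout, and those of Myc, Ier3, and Zfp36 lie below. The intervals of Ier3 at + 7 h (-1.19 to 0.43) and of Zfp36 at + 4 h (-0.95 to 0.10) cross 0. Jun, Junb, and Jund have intervals that reach or come near to 0.

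The differences of the AP-1 subunits did not pass, and their common changes were smaller in size than those of the 4 called members. At + 4 h, however, each was larger in size than that of Zfp36 (-0.43). Jun had 7.34 and 8.5 RPKM in DMSO against 14.6 and 9.18 with p38i at E3.5 + 4 h, and its log2 differences were 0.55, 0.28, and 0.17 at the 3 time points. Jund had 143 and 183 against 216 and 223 RPKM at + 4 h, where its difference was 0.44, and -0.03 and 0.08 afterwards. Junb differed by 0.53, 0.28, and -0.19. Over the 12 libraries the differences were 0.33 for Jun (95% interval 0.07 to 0.60, limma adjusted p = 0.129), 0.21 for Junb (-0.19 to 0.61, adjusted p = 0.493), and 0.16 for Jund (-0.04 to 0.36, adjusted p = 0.291).

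Whether the p38i effect itself differed between time points was tested as an interaction, and limma called 0 of the 7 members from E3.5 + 4 h to + 7 h and 0 from + 7 h to + 10 h (0.00884% and 0.00877% of all genes). At an unadjusted p under 0.05 there were 0 and 2 members, beside 6.83% and 26.3% of all genes. Voom called 0 and 1 members (Ier2), beside 0% and 7.83% of all genes. The effect on Ier2 differed by -0.69 between + 7 h and + 10 h (limma adjusted p = 0.0759) and that on Ier3 by -1.39 (adjusted p = 0.0957). The narrowing for Ier2 and the widening for Ier3 therefore did not pass the test of the difference.

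Across the 12 libraries Zfp36 and Myc varied together (Pearson r = 0.93 on the log2 scale), and Ier2 varied against both (r = -0.85 with Zfp36 and -0.88 with Myc). Jun and Jund had r = 0.66. The libraries share treatment and time, so these values describe the pattern and carry no test. Among 10713 genes the closest to each member were Ankrd54 (0.972) and Cdk5rap3 (0.965) for Ier2, Lonrf1 (0.951) and Slc38a2 (0.943) for Myc, Tbc1d15 (0.967) and Mospd1 (0.942) for Zfp36, and Nlrp4f (0.890) and Hist1h1c (0.842) for Ier3. For the AP-1 subunits they were Aen (0.936) and Rap2a (0.909) for Jun, Ruvbl2 (0.930) and Grm4 (0.910) for Junb, and Ptgr2 (0.953) and Dlst (0.921) for Jund.

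Of 50 other immediate early genes, 37 to 41 could be tested. With p38i limma called 2 higher and 1 lower of 37 at E3.5 + 4 h, 1 and 2 of 40 at + 7 h, 1 and 1 of 37 at + 10 h, and 2 and 2 of 41 in the common effect, beside 0.909%, 2.13%, 0.803%, and 2.67% of all genes. At an unadjusted p under 0.05 there were 6, 19, 15, and 17 (9.42%, 28.4%, 19.8%, and 25% of all genes), and voom called 2, 8, 5, and 5 (0.315%, 15.8%, 4.77%, and 3.48% of all genes). Plk2, a polo-like kinase, had 5.8 and 6.79 RPKM in DMSO and 19 and 13.1 with p38i at + 4 h. It rose at each time point (log2 change 1.33, 0.86, and 0.85, limma adjusted p = 4.02e-06, 0.0496, and 0.04). Btg2, an antiproliferative gene, rose at + 4 h (1.27, adjusted p = 2.4e-06) and in the common effect (0.93, adjusted p = 0.00493). In DMSO from + 4 h to + 7 h both also rose, Plk2 by 0.90 (limma adjusted p = 0.00292) and Btg2 by 0.69 (adjusted p = 0.049), and Btg2 passed from + 4 h to + 10 h as well (0.91, adjusted p = 0.0334). For DMSO from + 4 h to + 7 h, as for p38i at + 4 h, a gene's own spread did not enter its test. With no filter, median centring, or the length trend removed, limma called 0 genes with p38i at + 4 h and at + 7 h. The p38i calls of this list at those times were thus lost too.

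Ctgf, a secreted matrix-associated protein, fell at + 4 h and + 7 h (-0.96 and -1.27, limma adjusted p = 0.0255 and 0.0479) and in the common effect (-0.96, adjusted p = 0.00652). Csrnp1, a nuclear protein, fell at + 7 h (-1.18, adjusted p = 0.0456) and in the common effect (-0.70, adjusted p = 0.022, limma). Rhob, a small GTPase, fell at + 10 h (-0.53, limma adjusted p = 0.0398). The list's medians were -0.01, -0.31, and -0.09 at the 3 time points, against 0.07, -0.14, and -0.02 over all genes.

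**Figure D4:**
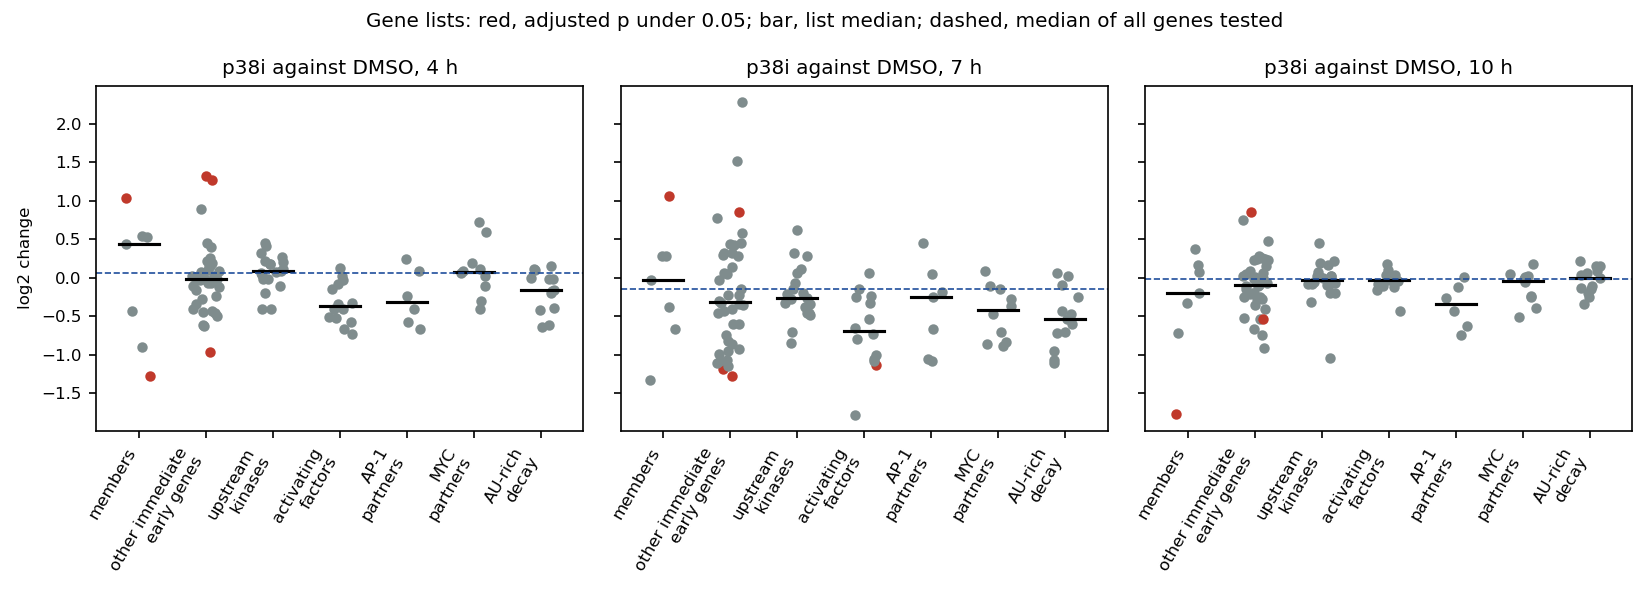
Log2 change of p38i against DMSO for each tested gene of 7 lists at the 3 time points. Red points passed (adjusted p under 0.05), black bars are list medians, and the dashed line is the median of all genes tested. The factors that switch on immediate early genes have their lowest median, -0.69, at + 7 h, and lie near 0 at + 10 h.

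Upstream of the members, limma called 0 of 19 to 20 kinases in each of the 4 p38i comparisons. At an unadjusted p under 0.05 there were 2, 2, 3, and 4 of them, and voom called 0, 0, 2, and 0. Over all genes limma called 0.909%, 2.13%, 0.803%, and 2.67%, and voom 0.315%, 15.8%, 4.77%, and 3.48%. The shares at an unadjusted p under 0.05 were 9.42%, 28.4%, 19.8%, and 25%. Of 14 tested transcription factors that switch on immediate early genes, 13 were lower than DMSO at + 7 h, with a median of -0.69, while 59.9% of all genes were lower. Limma called 1 of them at that time, 8 had an unadjusted p under 0.05, and voom, which called 15.8% of all genes there, called 7. Mkl1, a coactivator of serum response factor, fell at that time (-1.13, limma adjusted p = 0.0456), and Atf2, which pairs with Jun and is phosphorylated by p38, fell in the common effect (-0.71, adjusted p = 0.0189). These genes are long (median 7297 bases, against 3812.5 for all genes), and removal of the trend with length moved the list's median at + 7 h to -0.31, with 10 of 14 lower. The part of length in this result was not tested further.

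Few partners of the members passed in limma, and at + 7 h most were lower than DMSO, as were 59.9% of all genes. In the 4 p38i comparisons limma called 0.909%, 2.13%, 0.803%, and 2.67% of all genes. At an unadjusted p under 0.05 the shares were 9.42%, 28.4%, 19.8%, and 25%, and voom called 0.315%, 15.8%, 4.77%, and 3.48%. The counts below are to be read beside these shares. Limma called 0 of 10 partners and antagonists of Myc in each p38i comparison, with 1, 4, 2, and 2 at an unadjusted p under 0.05 and 0, 1, 0, and 0 by voom. Their median at + 7 h was -0.42, with 9 of 10 lower. With the length trend removed it was -0.30, against 0.01 over all genes, again with 9 of 10 lower. Their median length was 3957.5 bases. Among 6 to 8 AP-1 partners and inhibitors Atf2 was the single limma call, with 1, 2, 2, and 3 genes at an unadjusted p under 0.05 and 0, 2, 1, and 1 called by voom. Of the 13 genes of AU-rich mRNA decay, Cnot6, a deadenylase of the CCR4-NOT complex, fell in the common effect (-0.49, limma adjusted p = 0.0191) and was the single limma call in the 4 p38i comparisons. In these, 2, 6, 3, and 6 of the 13 had an unadjusted p under 0.05, and voom called 0, 4, 0, and 1. The median was -0.53 at + 7 h, with 11 of 13 lower, against -0.14 over all genes. These genes are also long (median 7354 bases), and with the length trend removed the median was -0.09.

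Few markers of cell types passed with p38i. Of 6 tested trophectoderm markers, Gata3 (-0.51, limma adjusted p = 0.0169) and Cdx2 (-0.38, adjusted p = 0.0336) fell in the common effect and the other 4 did not pass. Over the 12 libraries limma called 0 of 7 epiblast markers and 0 of 4 primitive endoderm markers, with 3 and 0 at an unadjusted p under 0.05 and 0 and 0 by voom. Of all genes, 2.67% were called by limma, 25% had an unadjusted p under 0.05, and 3.48% were called by voom. Summed over the list, trophectoderm markers spanned 1730 to 2550 RPKM in DMSO and 1910 to 2460 with p38i. Krt8 (474 to 754 RPKM) and Krt18 (909 to 1400 RPKM) make up most of this sum, so it does not show Gata3 or Cdx2. The part of cell type makeup in the changes of Ier2, Myc, Ier3, and Zfp36 was not tested.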

How the data were processed

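The mRNA of 12 libraries was analysed. According to the labels and methods, poly(A) mRNA was made into directional libraries and sequenced as single reads, and the authors used Trim Galore 0.4.1 for trimming, HISAT2 2.0.5 for alignment to GRCm38, and SeqMonk for counting. The authors deposited log2 RPKM for 34245 rows. The options for strand, isoforms, and multiple mapping are not given in the sources used here. A row with no read holds 0.9 of a read, which with GENCODE M21 lengths gave each library's total. Whole reads (within 0.05) were then recovered for 34244 rows. Where the GENCODE length was missing or gave no whole reads, the shortest length that gave them was used. For such rows whole reads are therefore no check of the length.

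The deposited log2 values were fitted without change in limma 3.58.1 (lmFit, eBayes with trend; R 4.3.3), for rows that reached 1 RPKM in 2 or more of the comparison's libraries, with Benjamini-Hochberg adjustment over all genes tested and a threshold of 0.05. The scripts were tested on simulated data. No spike-in was used, so levels are relative to the library. Named genes were all members, every called gene of the other lists, and the 2 genes closest to each member, among rows that reached 1 RPKM in 6 or more libraries. The members and lists were chosen with earlier results of these data known. Alternatives covered filters, the pseudocount, centring, length, the fit, the replicate block, omitted replicates, and voom.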

Additional observations from a re-analysis of the deposited data

How the results depend on the processing

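The 4 single-time and common comparisons of p38i called 2, 1, 1, and 4 members. At E3.5 + 4 h the count was 0 without the trend, with no filter, with median centring, with the length trend removed, and with all 12 libraries in one fit, 1 with a filter of 10 RPKM, and 0 to 4 with 1 replicate left out. At + 7 h it was 0 without the trend, with no filter, with centring, and with the length trend removed, 2 with a pseudocount of 1 or voom, 3 with all 12 libraries, and 0 to 3 with 1 replicate left out. At + 10 h it was 0 without the trend, with no filter, with 10 RPKM, and with all 12 libraries, 2 with voom, and 0 to 2 with 1 replicate left out. The common count was 2 without the trend or with no filter, 1 with 10 RPKM, 1 without the 7 h time point, and 2 to 3 with 1 replicate left out, and Zfp36 was lost in every one of those omissions. The control count from + 4 h to + 10 h was 1 (Jund) with 10 RPKM or voom and 0 to 1 with 1 replicate left out, and the interaction from + 7 h to + 10 h was 1 (Ier2) with 10 RPKM or voom and 0 to 2. The cause of these differences was not tested. Over all genes, limma at + 4 h called 11 without the trend. It called 0 there with no filter, centring, the length trend removed, or all 12 libraries. At + 7 h it called 0 genes without the trend, with no filter, with centring, and with the length trend removed. At + 10 h it called 9 genes without the trend and 0 with no filter or all 12 libraries. Same-numbered replicates are not tied to each other by the labels, and their deviations correlated at -0.0124, 0.162, and 0.167 between DMSO and p38i at the 3 time points. With the replicate block the counts were 2 at + 7 h (Myc gained), 2 at + 10 h (Ier2 gained), 3 in the common effect, where Zfp36 was lost (adjusted p = 0.0557), and 1 for the control from + 4 h to + 10 h (Jund gained), and the block changed no other call of a member. Of 892 values of single members, 784 kept their direction and side of the threshold, 53 lost and 21 gained a call, and 34 changed sign, none of them a called change. With 1 replicate left out the values that changed sign ranged, with p38i, from -0.13 to 0.70 for Junb and -0.07 to 0.01 for Jund at + 7 h, and from -0.38 to 0.01 for Junb at + 10 h. In DMSO they ranged from -0.02 to 0.21 for Jun and -0.47 to 0.02 for Junb (+ 10 h against + 7 h), and from -0.06 to 0.31 for Ier2, -0.31 to 0.07 for Ier3, -0.13 to 0.13 for Zfp36, and -0.18 to 0.38 for Myc (+ 10 h against + 4 h). For the difference of the p38i effects they ranged from -0.61 to 0.06 for Jun, -0.66 to 0.17 for Junb, -0.17 to 0.22 for Ier2, and -0.32 to 0.24 for Myc (+ 7 h against + 4 h), and from -0.22 to 0.01 for Jun (+ 10 h against + 7 h). Of the other alternatives, centring changed the sign of Jund with p38i at + 7 h (0.17). In DMSO at + 10 h against + 4 h they were Ier2 (-0.01), Zfp36 (-0.14), and Myc (-0.03) with centring, Ier2 (-0.00), Zfp36 (-0.15), and Myc (-0.05) with the length trend removed, and Zfp36 (-0.00) with a pseudocount of 1. For the difference of effects they were Myc with a pseudocount of 1 (0.02), centring (0.18), the length trend removed (0.12), and voom (0.01), and Jund with centring (-0.09).

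With 2 pools a group, 30 embryos a pool, and no spike-in, small or global changes are out of reach. Fosb and Egr1 lie at the limit of depth, Fos is low (0 to 49 reads per library), and the shallowest library is one of 2 with p38i at + 7 h.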
